A study of Mus musculus with 2 samples.

Results

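Among mouse corneal epithelial cells sorted for a mitotic cyclin reporter, 619 of 4125 cells held the most RNA for keratin 16 (Krt16), the alarmins S100a8 and S100a9, and the aldo-keto reductase Akr1b8. The cells came from 6752 barcodes, of which 6188 had at least 500 detected genes and less than 20% mitochondrial molecules (unique molecular identifiers, UMIs). Of these, 4125 counted as corneal because they held at least 5 UMIs of Krt12 and Krt15 together, with Krt12, the keratin of the corneal epithelium, making up more than 0.8 of them. The 15% of corneal cells with the highest share of UMIs from the 4 gate genes, ranked over both libraries pooled, are called the gated cells, and the 3506 remaining ones the other corneal cells.

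The study sorted live, GFP-positive cells from corneas of CycB1-GFP mice, a reporter that marks cycling cells, and made 2 droplet single-cell RNA libraries of 1 group. Corneas were kept in Dispase overnight in the cold, the epithelium was peeled off and dissociated in trypsin, and dead cells were excluded with DAPI, so every cell shared this genotype and handling. There was no GFP-negative, untreated or wounded group, the sources used here give neither the age nor the number of mice, and no gene in the deposited matrix stands for GFP. Nothing ties the library number in the barcodes to a labelled replicate or says that the libraries came from separate mice, so p-values do not measure a spread between mice. They rest on a spread estimated largely over all genes of these 2 libraries. A gene whose libraries disagree can therefore still pass.

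Krt16 pairs with keratin 6 in filaments that stratified epithelia make at sites of injury, friction or hyperproliferation, and Krt17 is often made with them. S100a8 and S100a9 form calprotectin, a calcium- and zinc-binding protein complex abundant in neutrophils that stressed keratinocytes also make, and which is called an alarmin because it can signal to immune cells once released. Aldo-keto reductases reduce reactive aldehydes, and the corneal epithelium carries other aldehyde-handling enzymes, such as Aldh3a1, as soluble crystallins.

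The members were chosen by their measured UMIs of these 4 genes, and the gate was unevenly filled. It took 549 of 2304 corneal cells of library 1, 23.8% (exact binomial 95% interval 22.1 to 25.6), and 70 of 1821 of library 2, 3.84% (3.01 to 4.83), where the intervals cover counting error only. With 1 library on each side, this difference has no test. The values that chose the cells ran from 484 to 20043 CPM (UMIs per 1000000 UMIs of the cell) for the 4 genes summed, and the absolute counts were small, with a median of 11 gate UMIs a cell in library 1 and 9 in library 2. The 20 cells just inside the limit held 484 to 521 CPM of gate RNA and the 20 just outside held 465 to 483, so cells on either side of the limit hardly differed.

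The gate genes themselves describe the choice and support nothing. Summed over cells, Krt16 stood at 1104 CPM in gated and 19.4 in other cells of library 1, and at 1886 and 11.5 in library 2. S100a9 stood at 694 and 17.7 CPM in library 1 and at 249 and 3.61 in library 2, and Akr1b8 at 159 and 34.7 in library 1 and at 18.8 and 8.67 in library 2. Gated cells of the libraries differed in their makeup. In library 1, 203 gated cells held both Krt16 and an alarmin, 89 held Krt16 without an alarmin and 244 held an alarmin without Krt16. In library 2 the counts were 10, 50 and 8, so most gated cells there were chosen through Krt16 alone and the name "Krt16 and alarmin" describes few of them.

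The gated cells carried RNA of corneal epithelium and little RNA of keratocyte, neutrophil or other immune markers. Summed over 6 corneal markers, gated cells held 27420 CPM in library 1 and 31495 in library 2, beside 26578 and 29733 in other corneal cells. The members went both ways, and without Krt14, which was higher as described below, the sums were 15839 and 22612 CPM in gated cells beside 22033 and 26599. All 6 keratocyte and fibroblast markers were at 0 in the gated cells of both libraries, and so were the immune genes Ptprc, Tyrobp, Fcer1g, Lyz2 and Cd52. The 7 immune markers summed to 0.482 CPM beside 0.515 in library 1 and to 10.4 beside 1.99 in library 2, where the gated cells held 5 UMIs of the antigen presentation gene Cd74 (10.4 CPM beside 0.994). Of 8 neutrophil markers other than the alarmins, 2 were detected in gated cells of library 1, with 4 UMIs in all, and none in library 2. Csf3r, Ly6g, Retnlg, Mmp8, Camp and Ngp were at 0 in the gated cells of both libraries. Summed limbal markers were higher in gated cells, at 1270 and 1337 CPM beside 697 and 582, most of it from Ifitm3, an interferon-inducible membrane protein. Ifitm3 was 1.17 ± 0.12 higher on the log2 scale in the test described below and passed in 13 of 15 alternative settings. The limbal marker Gpha2 was at 43.8 against 39.6 CPM in library 1 and at 45.2 against 66.4 in library 2 (-0.10, edgeR adjusted p = 0.947). Gphb5 and Cxcl14 did not pass either. Cd63 and Igfbp3 passed as higher, with 2 and 0 gated UMIs in library 2. Conjunctival markers summed to 167 and 146 CPM beside 125 and 134. Among them Krt19, a simple epithelial keratin, was at 40.8 against 10.7 CPM in library 1 and at 19.4 against 11.3 in library 2 (1.57 ± 0.31, adjusted p = 5.11e-05), a call lost with DESeq2 (adjusted p = 0.27) and with matched depth (adjusted p = 0.0755). Krt4, a mucosal keratin, was at 8.86 against 5.99 CPM and at 34.5 against 6.99 (1.31 ± 0.41, adjusted p = 0.0383), a call lost with DESeq2 (adjusted p = 0.729) and with matched depth (adjusted p = 0.801). The conjunctival markers Krt13, Krt8, Krt18, Krt7 and Muc1 did not pass. Krt13, with the most UMIs of the list, was at 78.2 against 82.8 CPM and at 68.9 against 61.8 (0.003, edgeR adjusted p = 0.999). Krt8 was at 8.35 against 6.62 CPM in library 1 and at 6.46 against 25.6 in library 2. Gated cells were more deeply sampled than other corneal cells in both libraries, with a median of 7438 against 5450 UMIs in library 1 and 6938 against 6355 in library 2. Scores for likely doublets among the highest 3% were held by 22 of 549 gated cells in library 1 (4.01%, against 2.62% of other cells) and 2 of 70 in library 2 (2.86%, against 2.23%). The libraries shared 5 barcode sequences, none of them in a gated cell. The part of limbal and conjunctival RNA, depth and doublets in the results below was not tested beyond the alternatives given beside them.

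To find what else set the gated cells apart, their counts were summed in each library and compared with the sum of the other corneal cells of the same library, leaving out the 6 genes that chose the cells. Of 11233 genes tested, 313 were higher in gated cells (2.79%) and 174 lower (1.55%) at an edgeR adjusted p under 0.05, with the library as a block, and 302 and 172 of these had the same sign in both libraries. The keratins Krt6a, Krt6b and Krt17, 4 EGF receptor ligands and 8 genes of the keratinocyte surface were higher, and the crystallin enzymes Aldh3a1 and Tkt and 11 mitotic genes were lower. The median log2 difference over all genes was -0.02. The counts rest on 4 sums with 1 residual degree of freedom. They fell to 3 higher and 0 lower without the library block (1041 genes at an unadjusted p under 0.05), to 73 and 13 with DESeq2, and to 15 and 1 when the other cells were matched to the gated cells on total UMIs (939 at an unadjusted p under 0.05). An equally small set of other cells drawn without regard to depth, an alternative added after seeing the data, gave 96 and 38. The 28 genes named by rule, 14 in each direction, kept their sign in each of these 4 settings, but only 5 of the 28 still passed with matched depth, namely Ly6d, Krt17, Spink5, Sprr1a and Ceacam1. Without the block, the 3 genes past the threshold were Ly6d, Shroom3 and Krt6a.

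**Figure D1:**
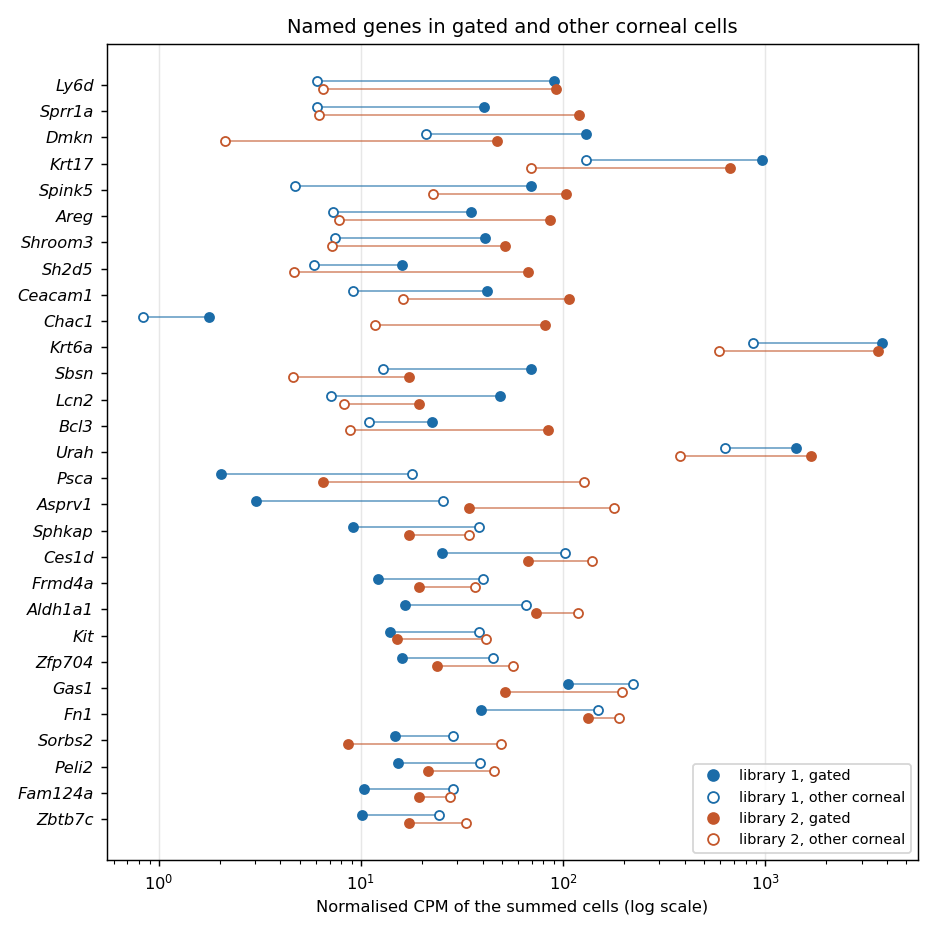
Normalised CPM on a log scale for Urah and the 28 genes named by rule, with filled points for the summed gated cells, open points for the summed other corneal cells and 1 colour per library. For Ly6d the filled points lie at 90.1 and 92.6 and the open points at 6.09 and 6.46, while for Psca the filled points lie at 2.03 and 6.46 and the open points at 17.8 and 128.

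Krt6a and Krt17, keratins made beside Krt16, had the smallest p-values of the whole table. All 3 tested members of the wound keratin list were higher, with a median log2 difference of 2.36. With DESeq2 all 3 passed, and with matched depth 2 of 3, with medians of 2.37 and 2.18. The share higher over all genes tested was 2.79%. Krt6a, which pairs with Krt16 in filaments, was at 3767 CPM in gated and 866 in other cells of library 1 and at 3605 and 592 in library 2, after scaling of the summed counts. Both gated sums lay above both sums of other cells, a log2 difference of 2.36 ± 0.11 (SE, n = 2 libraries; edgeR adjusted p = 1.7e-94). Krt17 was at 960 and 130 CPM in library 1 and at 668 and 69.7 in library 2, a difference of 3.06 ± 0.16 (adjusted p = 3.87e-81). Krt17 RNA was found in 63.9% and 62.9% of gated cells and in 21.3% and 17.2% of other corneal cells, without correction for depth. Krt6b was at 428 against 73.6 CPM in library 1 and at 377 against 192 in library 2, a difference of 1.80 ± 0.33 (adjusted p = 0.018), and it varied most between libraries of the 3.

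Krt14, the acidic keratin of basal cells, was at 12151 against 4631 CPM in library 1 and at 9159 against 3070 in library 2, 1.48 ± 0.09 higher on the log2 scale (adjusted p = 3.88e-62). Its basal partner Krt5 was at 5984 against 5284 CPM and at 6616 against 5776, a difference of 0.19 ± 0.09 that did not pass (adjusted p = 0.292). Krt14 was higher and Krt5 was not past the threshold, and the difference between these genes was not tested. Without the library block Krt14 and Krt17 kept differences of 1.47 and 3.03 but not the call (adjusted p = 0.251 and 0.212), and Krt6a, at 2.18, lost it with matched depth (adjusted p = 0.311). The genes for Krt14, Krt16 and Krt17 lie side by side on chromosome 11 of GRCm38, at positions 100203162 to 100207548, 100246091 to 100248902 and 100256217 to 100261029, all on the minus strand, and are similar in sequence. Krt6a and Krt6b, on chromosome 15, are close copies of each other. How reads shared by such genes were assigned is not given in the sources used here, so the split of counts between members of these families is uncertain.

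**Figure D2:**
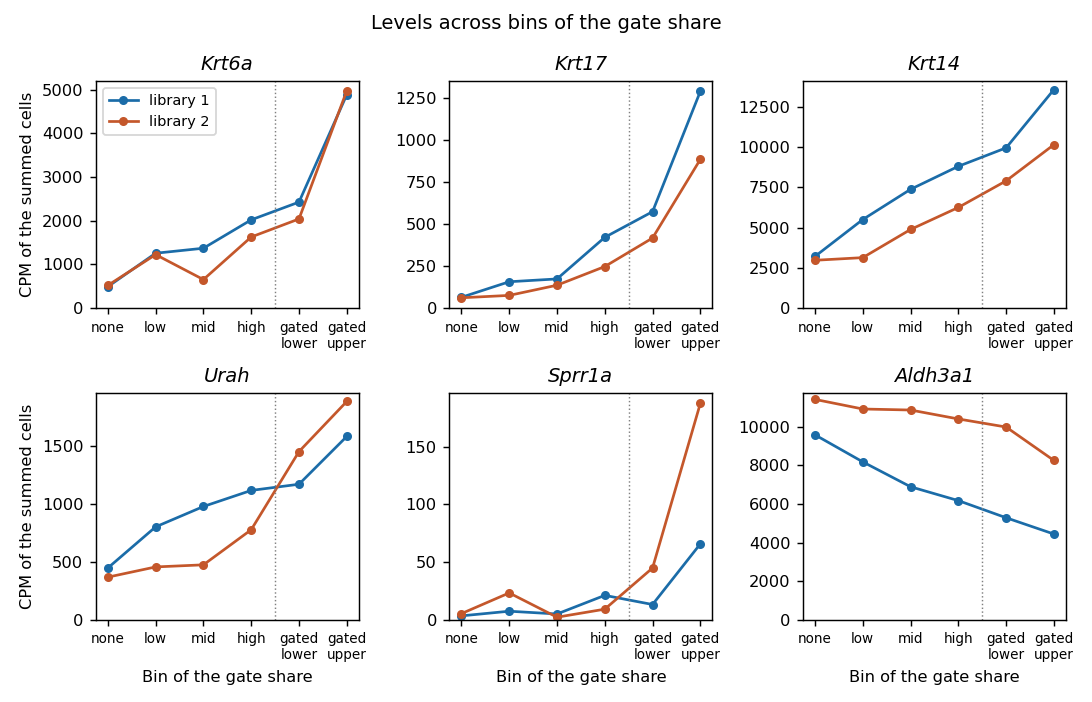
Levels of 6 genes in CPM of the summed cells (y axis, linear from 0) across 6 bins of corneal cells ordered by their share of gate UMIs (x axis), with 1 line per library and a dotted line at the gate. Krt14 climbs from 3206 to 13574 CPM in library 1 and from 2964 to 10150 in library 2, and Aldh3a1 runs the other way, from 9590 to 4441 and from 11431 to 8262.

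Krt14, Krt17 and Krt6a, but not Krt6b or Krt5, were also ordered along the gate score below and above the limit. In library 1 Krt14 stood at 3206, 5497, 7374, 8805, 9952 and 13574 CPM in bins from cells with no gate UMI to the upper part of the gated cells. In library 2 the same bins held 2964, 3129, 4879, 6248, 7900 and 10150 CPM. Krt14 was higher in every successive bin of both libraries. Krt17 went from 63.6 to 1290 CPM in library 1 and from 60.6 to 885 in library 2, and Krt6a from 488 to 4881 and from 517 to 4971, with 1 dip to 650 in the middle bin of library 2. Krt6b had no such order, at 63.1, 156, 19.5, 87.6, 110 and 724 CPM in library 1 and at 179, 368, 100.0, 446, 76.1 and 644 in library 2, where the lower gated cells stood below cells with no gate UMI. Cells with no gate UMI were the majority, at 56.1% of corneal cells in library 1 and 85.2% in library 2, and they were shallower (median 5038 and 6232 UMIs) than the upper gated cells (7614 and 7129). These bins are a description of the ranked cells and carry no test.

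Urah, which encodes an enzyme of uric acid breakdown (chromosome 7, 140835018 to 140837966, plus strand), was proposed as a marker of these cells with earlier results known but did not enter the gate. It was at 1421 CPM in gated and 631 in other cells of library 1 and at 1693 and 379 in library 2. Both gated sums were again the higher ones, a log2 difference of 1.66 ± 0.13 (adjusted p = 2.49e-24). The call was lost without the block (1.62, adjusted p = 0.251) and with matched depth (1.47, adjusted p = 0.513). Urah went from 446 CPM in library 1 cells with no gate UMI to 1582 in the upper gated cells, and from 367 to 1884 in library 2.

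Among the 28 genes named by rule, Ly6d had the largest difference. Ly6d, a GPI-anchored surface protein of stratified epithelium (chromosome 15, 74762056 to 74763620, minus strand), was at 90.1 CPM in gated and 6.09 in other cells of library 1 and at 92.6 and 6.46 in library 2. The levels hardly differed between libraries and the log2 difference was 3.86 ± 0.26 (adjusted p = 1.06e-47). It passed the threshold in all 15 alternative settings with a test. Ly6d UMIs were found in 75 of 549 gated cells of library 1 and 19 of 70 of library 2, so most gated cells had none. Dmkn, a secreted epidermal protein, was at 129 against 20.9 CPM and at 47.4 against 2.12 (log2 difference 3.09, adjusted p = 1.55e-29). Spink5, an inhibitor of epidermal proteases, was at 69.1 against 4.73 CPM and at 103 against 22.8 (3.02, adjusted p = 5.25e-29), but in library 2 its RNA sat in 10 gated cells and 1 of them held 33.3% of the UMIs. Ceacam1, an adhesion receptor, and Shroom3, an actin-binding regulator of cell shape, were 2.45 and 2.61 higher on the log2 scale. Sh2d5, an adaptor protein, was 2.52 higher, and Chac1, a glutathione-degrading enzyme, 2.38 higher. For Chac1 library 1 held 7 UMIs in gated and 8 in other cells, a ratio of rates of 2.05 with a 95% counting interval of 0.632 to 6.46, so its call rests on library 2.

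**Figure D3:**
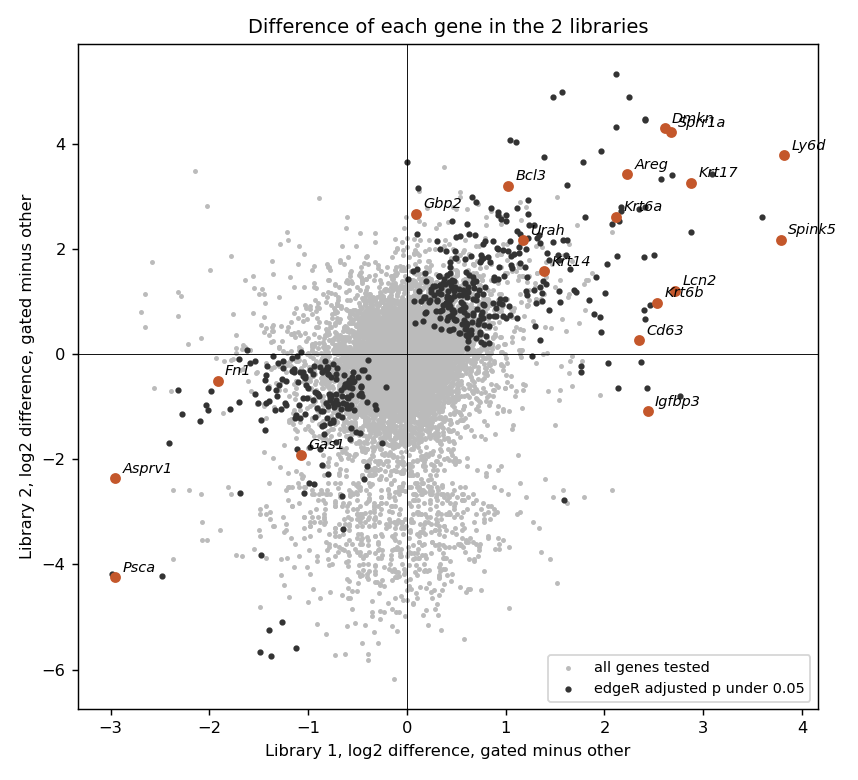
Log2 difference, gated minus other corneal cells, in library 1 (x axis) and library 2 (y axis) for every gene tested, with genes past the edgeR threshold in dark points and selected genes named. Krt17 lies at 2.88 and 3.25 and Ly6d at 3.82 and 3.78, close to equal values in the libraries, whereas Cd63 lies at 2.35 and 0.26 and Gbp2 at 0.09 and 2.67; the gated sum of library 2 held only 467894 UMIs, and genes with none there form the cloud at negative values.

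Genes of the cornified envelope and cell surface were next. Of 20 tested genes of that list 8 were higher and 1 lower, with a median log2 difference of 0.63. DESeq2 called 5 of them higher, and 1 of 17 passed with matched depth (median 0.58). Shares over all genes tested were 2.79% higher and 1.55% lower. Sprr1a, a proline-rich precursor of the envelope (chromosome 3, 92483952 to 92485895, minus strand), was at 40.5 against 6.09 CPM in library 1 and at 121 against 6.20 in library 2, a difference of 3.46 ± 0.28 (adjusted p = 1.48e-31). Its RNA was found in 76 and 14 gated cells. Krtdap, a keratinocyte differentiation protein, was 4.13 ± 0.75 higher (adjusted p = 4.96e-06) from only 44 UMIs in library 1 and 1 in library 2, and Sprr1b, a close copy of Sprr1a, was 3.61 ± 0.56 higher (adjusted p = 3.09e-08). Tgm1, the transglutaminase that crosslinks the envelope, was at 13.4 against 2.00 CPM and at 36.6 against 3.36, 3.07 ± 0.45 higher (adjusted p = 2.73e-09). Sbsn, a secreted protein of the upper layers named by the general rule, was 2.30 higher. Upk1b, a membrane plaque protein, was the member that was lower, by -0.52 on the log2 scale (adjusted p = 0.0431).

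Printed below are promoters of 4 higher genes, taken from those that held a match. They show the letters matched by a search for the AP-1 binding motif TGANTCA on both strands. Each covers the 250 bases before the RefSeq start, written 5' to 3' in the direction of the gene on GRCm38.p6, with motif matches in capitals. They are Sprr1a at chr3:92485882-92486131 (minus strand), Krtdap at chr7:30787655-30787904 (plus strand), Sbsn at chr7:30751221-30751470 (plus strand) and Plaur, the urokinase receptor described below, at chr7:24462233-24462482 (plus strand).
Sprr1a: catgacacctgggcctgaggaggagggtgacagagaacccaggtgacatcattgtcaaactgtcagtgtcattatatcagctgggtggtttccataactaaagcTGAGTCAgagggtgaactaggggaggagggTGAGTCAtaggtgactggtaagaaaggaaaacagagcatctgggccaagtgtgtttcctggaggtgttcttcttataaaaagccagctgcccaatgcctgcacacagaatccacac
Krtdap: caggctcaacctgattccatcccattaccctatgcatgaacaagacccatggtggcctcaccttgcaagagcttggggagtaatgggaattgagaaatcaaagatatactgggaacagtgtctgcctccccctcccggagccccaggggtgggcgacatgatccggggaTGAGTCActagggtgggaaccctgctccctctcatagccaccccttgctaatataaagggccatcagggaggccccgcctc
Sbsn: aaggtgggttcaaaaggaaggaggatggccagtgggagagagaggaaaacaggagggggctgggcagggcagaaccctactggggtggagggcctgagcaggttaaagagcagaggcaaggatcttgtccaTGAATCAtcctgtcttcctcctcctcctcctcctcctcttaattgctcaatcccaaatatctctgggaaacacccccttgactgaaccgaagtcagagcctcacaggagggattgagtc
Plaur: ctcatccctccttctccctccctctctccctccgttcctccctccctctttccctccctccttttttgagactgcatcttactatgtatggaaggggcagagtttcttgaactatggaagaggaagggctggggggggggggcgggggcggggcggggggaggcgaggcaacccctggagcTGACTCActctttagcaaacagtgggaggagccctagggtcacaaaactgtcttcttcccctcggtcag
The Sprr1a window holds matches beginning 146 and 116 bases before the start, and the Krtdap, Sbsn and Plaur windows 1 match each, beginning 81, 119 and 69 bases before it. Of 226 genes higher in gated cells that have a listed promoter, 14.6% held at least 1 match, beside 4.58% of 131 genes that were lower, 5.39% of 8768 tested genes and 7.82% of 27025 listed genes. For the antioxidant response element TGACNNNGC, which can overlap the first motif, the shares were 13.3% of the higher, 5.34% of the lower and 13.9% of the tested genes. Areg, Lcn2 and Bcl3, also higher, had no AP-1 match in their windows, while the lower gene Aldh1a1 had 1 in 1 window. A match shows letters in a window and not binding. The table did not list promoters for Krt16, Krt6a or Krt17.

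**Figure D4:**
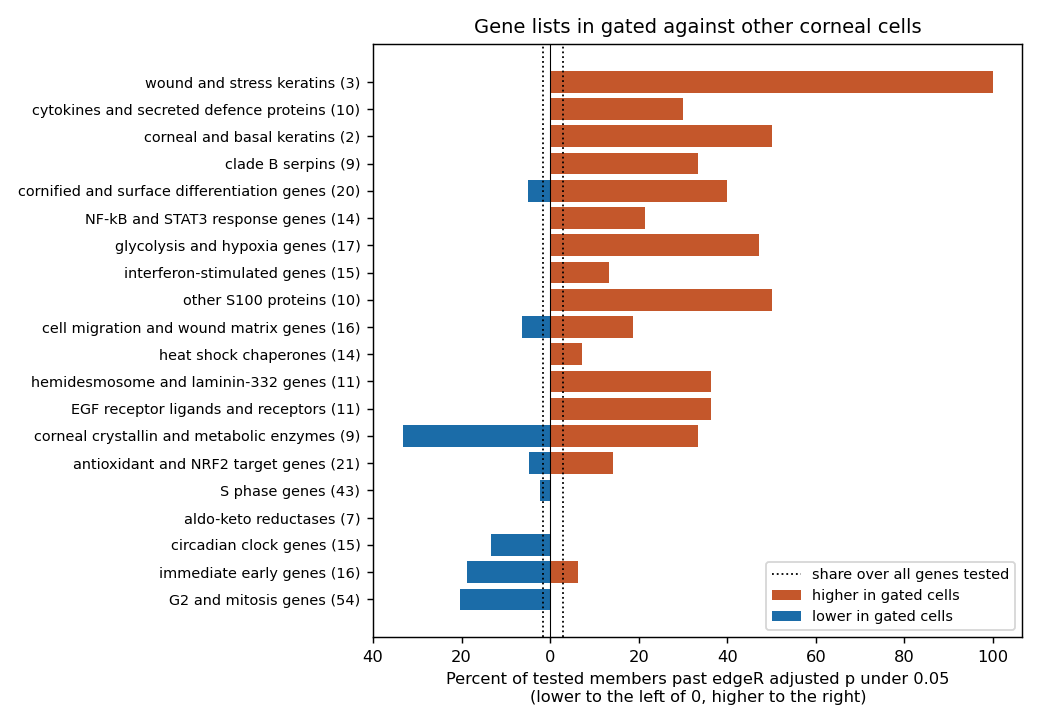
Share of the tested members of each gene list (their number in parentheses) past an edgeR adjusted p of 0.05, in percent, with bars to the right of 0 for members higher and to the left for members lower in gated cells. Dotted lines mark the shares over all genes tested, 2.79% higher and 1.55% lower, beside 3 of 3 wound keratins higher and 11 of 54 mitotic genes lower.

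Of 11 tested EGF receptor ligands and receptors, a pathway that drives corneal epithelial growth and wound closure, 4 were higher and 0 lower, all 4 of them ligands, with a list median of 0.13. DESeq2 called 1 of them, and matched depth 0 of 9, where 4 had an unadjusted p under 0.05. The share higher over all genes tested was 2.79%. Areg, amphiregulin, was at 35.2 against 7.25 CPM in library 1 and at 86.1 against 7.79 in library 2, a log2 difference of 2.81 ± 0.29 (adjusted p = 8.4e-19). Epgn, epigen, was 1.75 ± 0.34 higher (adjusted p = 3.91e-05), Tgfa 1.67 ± 0.43 (adjusted p = 0.005) and Hbegf 0.87 ± 0.20 (adjusted p = 0.000892). Each of these 4 had a larger difference in library 2 than in library 1. Egfr was at 69.1 against 89.5 CPM and at 110 against 92.0, with a log2 difference of -0.12 (adjusted p = 0.91), and the difference between ligands and receptor was not tested.

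Genes of migration and of attachment to the basement membrane included members in both directions. Shares over all genes tested were 2.79% higher and 1.55% lower. Of 16 tested migration and wound matrix genes 3 were higher and 1 lower (median 0.43). DESeq2 called 0 higher and 1 lower, and matched depth 0 of 15, each with 4 at an unadjusted p under 0.05. Plaur was at 3.29 against 1.36 CPM and at 23.7 against 1.15, 2.73 ± 0.64 higher from 13 and 11 gated UMIs (adjusted p = 0.0011). Actn1, an actin crosslinker, was 1.49 ± 0.35 higher from 169 and 3 gated UMIs, and Cd44, the hyaluronan receptor, 0.56 ± 0.17. Fn1, fibronectin, was the member that was lower, at 39.2 against 149 CPM in library 1 and at 134 against 190 in library 2 (-1.31 ± 0.19, adjusted p = 3.19e-09). Of 11 hemidesmosome and laminin-332 genes 4 were higher and 0 lower (median 0.17), with 1 called by DESeq2 and 0 with matched depth (5 at an unadjusted p under 0.05), among them the laminin chains Lamb3 (0.78 ± 0.19) and Lama3 (0.63 ± 0.17) and the integrin subunit Itga6 (0.57 ± 0.15).

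Secreted defence proteins and their usual regulators had members that passed as higher, where the share over all genes tested was 2.79%. Of 10 tested cytokines and defence proteins 3 were higher and 0 lower, with a median of 0.95. DESeq2 called 2 of them and matched depth 0 of 9, with 5 at an unadjusted p under 0.05. Slpi, a protease inhibitor of mucosal surfaces, was 2.91 ± 0.50 higher (adjusted p = 8.78e-07) from 96 and 4 gated UMIs. The alarmin cytokine Il33 was 2.21 ± 0.57 higher (adjusted p = 0.0051) from 35 and 4 gated UMIs. Lcn2, which binds bacterial iron carriers, was at 48.6 against 7.14 CPM in library 1 and at 19.4 against 8.23 in library 2, 2.27 ± 0.32 higher (adjusted p = 8.82e-10), with 9 UMIs in 4 gated cells of library 2. Of 14 NF-kB and STAT3 response genes 3 were higher and 0 lower (median 0.59), with 1 called by DESeq2 and 0 with matched depth (4 at an unadjusted p under 0.05). Bcl3, an NF-kB cofactor, was 2.03 ± 0.31 higher, at 22.5 against 10.9 and 84.0 against 8.85 CPM, followed by the transcription factor Cebpd (1.24 ± 0.25) and the cytokine signalling inhibitor Socs3 (0.89 ± 0.25). Among 10 tested S100 genes other than the alarmins 5 were higher and 0 lower (median 0.43), with 1 called by DESeq2 and 2 of 9 with matched depth, led by S100a7a (2.35 ± 0.70, 25 and 1 gated UMIs) and S100a14 (1.02 ± 0.15). Of 9 clade B serpins 3 were higher and 0 lower (median 0.66), among them Serpinb11 (1.28 ± 0.33). DESeq2 called 0 of the 9 serpins and matched depth 0 of 7, with 2 and 5 at an unadjusted p under 0.05.

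None of the other aldo-keto reductases passed, and Akr1b8 was not tested because it chose the cells. Of 7 tested, 0 were higher and 0 lower with edgeR (median -0.05), 0 had an unadjusted p under 0.05, and DESeq2 called 0. Matched depth also called 0 of 7, but there the median was -0.33 and 2 had an unadjusted p under 0.05. Akr1b3 and Akr1a1 had log2 differences of 0.23 (adjusted p = 0.661) and 0.05 (adjusted p = 0.971). Of 21 antioxidant genes driven by NRF2 in other settings 3 were higher and 1 lower (median 0.06). DESeq2 called 0 of them, with 4 at an unadjusted p under 0.05, and matched depth 1 of 20, Txn1. Shares over all genes tested were 2.79% higher and 1.55% lower. Thioredoxin Txn1 was at 3529 against 2319 CPM in library 1 and at 2632 against 1768 in library 2 (0.59 ± 0.10, adjusted p = 1.35e-06). Hmox1, heme oxygenase, was 1.86 ± 0.60 higher (adjusted p = 0.0434), Srxn1, sulfiredoxin, 1.07 ± 0.35 higher (adjusted p = 0.0497), with 0.11 in library 1 and 2.27 in library 2, and the glutathione transferase Gstm1 was -1.06 ± 0.24 (adjusted p = 0.000967).

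Aldh3a1 and Tkt, soluble enzymes that the corneal epithelium makes in crystallin amounts, were lower. Aldh3a1, the aldehyde dehydrogenase crystallin, was at 5036 against 8736 CPM in library 1 and at 9170 against 10895 in library 2, -0.52 ± 0.08 on the log2 scale (adjusted p = 8.06e-08). Transketolase, Tkt, was at 4053 against 7182 CPM and at 6807 against 8420 (-0.57 ± 0.09, adjusted p = 1.64e-08). In both libraries the gated sum was below that of the other cells, by less in library 2. DESeq2 gave differences of -0.51 and -0.55 that did not pass (adjusted p = 0.622 and 0.434), and neither passed with matched depth (adjusted p = 0.222 and 0.169). Aldh1a1 was -1.46 ± 0.22 (adjusted p = 4.57e-09) and its relative Aldh1a3, which makes retinoic acid, was 1.32 ± 0.17 higher (adjusted p = 1.14e-11). With Eno1 (0.54 ± 0.16) and Pgam1 (0.52 ± 0.16), 3 of 9 genes of the list were higher and 3 lower (median 0.10). Shares over all genes tested were 2.79% higher and 1.55% lower. Pax6, the master regulator of eye epithelia, was at 477 against 596 CPM and at 237 against 466 (-0.61 ± 0.15, adjusted p = 0.00215). Its log2 difference was -0.32 in library 1 and -0.97 in library 2, and it passed in 7 of 15 alternative settings.

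Glycolytic and hypoxia-responsive genes were higher as well, 8 of 17 with 0 lower (median 0.57). Among them were Ndrg1 (1.41 ± 0.32), Vegfa (1.25 ± 0.37), the phosphofructokinase Pfkp (0.92 ± 0.25) and Hif1a (0.76 ± 0.17). DESeq2 and matched depth called 0 of the 17, with 7 and 9 at an unadjusted p under 0.05 and medians of 0.52 and 0.36. The members did not move alike in the libraries, since the list's median was 0.74 in library 1 and 0.14 in library 2. Immediate early genes, the fast transcription factors of stimulated cells, had 1 member higher and 3 lower of 16 (median -0.26). The list's median was -0.37 in library 1 and 0.08 in library 2. DESeq2 and matched depth called 0 of the 16, with 4 and 7 at an unadjusted p under 0.05. For both lists the shares over all genes tested were 2.79% higher and 1.55% lower. Fosl1, an AP-1 subunit, was 1.97 ± 0.45 higher (adjusted p = 0.000721), by 0.65 in library 1 and 2.98 in library 2. It passed in 6 of 15 alternative settings. Fos was at 1159 against 1678 CPM and at 265 against 551 (-0.77 ± 0.13, adjusted p = 3.48e-07), and Jun and Jund were -0.41 ± 0.11 and -0.46 ± 0.13.

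Heat shock chaperones, interferon-stimulated genes and clock genes had 1 or 2 members each past the threshold. The shares over all genes tested were 2.79% higher and 1.55% lower. With DESeq2 the 1 call among these lists was a lower clock gene. With matched depth there was none, although 4 chaperones, 3 interferon-stimulated genes and 3 clock genes had an unadjusted p under 0.05. Hspd1 was the 1 of 14 chaperones that was higher (0.59 ± 0.16, median of the list 0.24). Of 15 interferon-stimulated genes 2 were higher, Gbp2 (1.45 ± 0.34) and Bst2 (0.81 ± 0.22), with list medians of -0.21 in library 1 and 1.24 in library 2. Gbp2 differed by 0.09 in library 1 and 2.67 in library 2, so its call rests on library 2. Of 15 clock genes 2 were lower, Hlf (-0.97 ± 0.16) and Arntl (-1.40 ± 0.44), and Arntl differed by -1.62 in library 1 and 0.08 in library 2.

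All cells had been sorted for a cyclin B1 reporter. Of 54 G2 and mitosis genes 0 were higher and 11 lower, with a median log2 difference of -0.34 and the same sign in both libraries for 46 of them. Psrc1, a spindle protein, was -1.25 ± 0.33, Ckap2, a spindle microtubule protein, -0.81 ± 0.20, Kif23, a kinesin of cytokinesis, -0.79 ± 0.17 and Gas2l3, a cytoskeletal linker of dividing cells, -0.77 ± 0.23. The list's median was -0.34 with DESeq2 and with matched depth too, but 0 genes passed there, with 10 and 26 at an unadjusted p under 0.05. Of 43 S phase genes 0 were higher and 1 lower (median 0.02). For both cell cycle lists the shares over all genes tested were 2.79% higher and 1.55% lower. Ccnb1, the gene of the reporter's cyclin, was not past the threshold (-0.40, adjusted p = 0.222).

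Shares of cells with RNA of 3 cell cycle genes were compared after each cell was thinned to 2000 UMIs, which left out 41 and 8 gated and 224 and 191 other cells as too shallow. Mki67 was found in 55.7% of gated cells (95% interval 51.3 to 60.1) and 70.8% of other cells (68.5 to 73.1) of library 1, and in 48.4% (35.5 to 61.4) and 71.8% (69.5 to 74.0) in library 2. Top2a was found in 65.9% and 79.8% in library 1 and in 71.0% and 80.4% in library 2. Gated cells had the lower share for both genes in both libraries. Without thinning the Mki67 shares were 84.9% and 87.1% in library 1 and 78.6% and 87.8% in library 2, differences that were smaller. Ccnb1 was found in 19.5% and 27.7% in library 1 and in 25.8% and 23.7% in library 2, so at this depth its direction differed between libraries. Without thinning Ccnb1 was found in 45.4% and 47.7% in library 1 and in 35.7% and 45.8% in library 2, and at 4000 UMIs in 33.1% and 44.7% and in 22.2% and 38.5%, the lower share being that of the gated cells in both libraries. No cell type that lacks these genes was available to set the background of free RNA.

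Of the remaining genes named by rule as lower, Gas1, a membrane protein linked to growth arrest, was at 106 against 223 CPM in library 1 and at 51.7 against 196 in library 2 (-1.35 ± 0.18, adjusted p = 2.51e-11). Ces1d, a carboxylesterase, was at 25.1 against 102 CPM and at 66.8 against 140 (-1.66 ± 0.20, adjusted p = 1.43e-13), and the receptor tyrosine kinase gene Kit at 13.9 against 38.2 and at 15.1 against 41.4 (-1.46 ± 0.28, adjusted p = 3.31e-05). Sphkap, Frmd4a, Zfp704, Sorbs2, Peli2, Fam124a and Zbtb7c had log2 differences from -1.79 to -1.17. The largest difference among the 14 lower genes belonged to Psca, a GPI-anchored surface protein, but it rests on few cells. Its log2 difference was -3.57 ± 0.35 (adjusted p = 1.3e-21), and in library 1 only 8 other corneal cells held its 170 UMIs, 70.0% of them in 1 cell. In library 2 gated cells held 3 Psca UMIs against 1442, a ratio of rates of 0.0481 (95% counting interval 0.00991 to 0.141). Asprv1, a protease of differentiated keratinocytes, was -2.70 ± 0.27 (adjusted p = 5.66e-21), with 45.5% of its UMIs in other cells of library 1 in 1 cell. Asprv1 RNA was found in a larger share of gated than of other cells, 2.00% against 1.08% in library 1 and 15.7% against 4.11% in library 2, so the lower sums reflect few other cells with many UMIs, 72 cells with 2014 UMIs in library 2. For Psca the shares of cells were 0.546% against 0.456% and 2.86% against 2.46%.

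**Figure D5:**
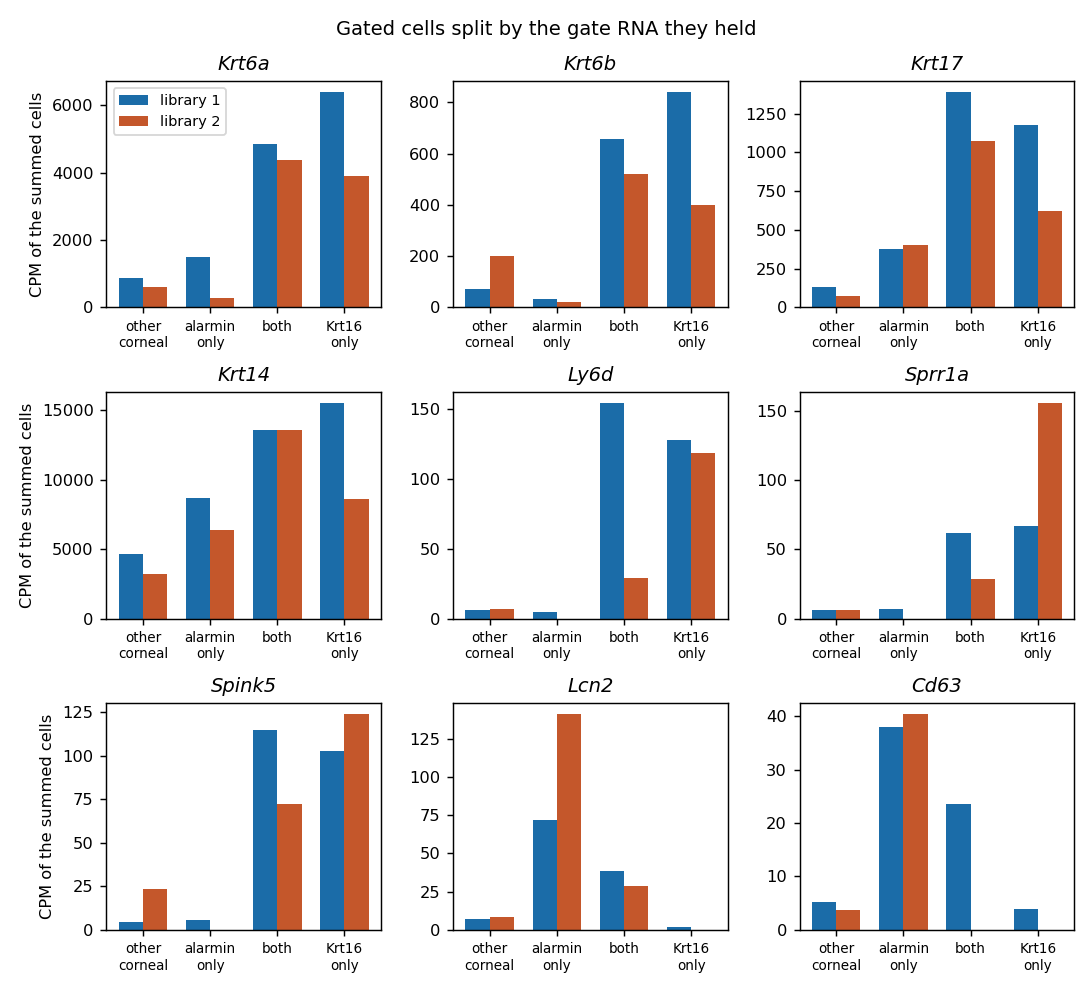
Levels of 9 genes in CPM of the summed cells (bars from 0, 1 colour per library) in other corneal cells and in gated cells with an alarmin and no Krt16, with both, or with Krt16 and no alarmin, from left to right. Krt6a stands at 864, 1490, 4863 and 6403 CPM in that order in library 1, whereas Lcn2 stands at 7.12, 71.8, 38.4 and 1.91.

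The gated cells were not alike. Splitting them by which gate RNA they held, as a description with no test, gave the highest Krt6a levels in cells with Krt16 and the highest Lcn2 levels in cells with an alarmin. In library 1 Krt6a stood at 6403 CPM in cells with Krt16 and no alarmin, 4863 with both, 1490 with an alarmin and no Krt16 and 864 in other corneal cells. In library 2 the values were 3914, 4369, 283 and 616, so cells chosen through an alarmin alone there lay below the other corneal cells, although they were only 8. Ly6d in library 1 stood at 128, 154, 4.74 and 6.07 CPM, and in library 2 at 118, 28.9, 0 and 6.72. Ly6d RNA was no higher than in other corneal cells where Krt16 was absent. Sprr1a and Spink5 in library 1 likewise stood at 7.12 and 5.34 CPM in cells with an alarmin and no Krt16, beside 6.07 and 4.71 in other cells. Lcn2 ran the other way, at 1.91, 38.4, 71.8 and 7.12 CPM in library 1, and so did the tetraspanin Cd63, at 3.82, 23.6, 38.0 and 5.13. Krt14 was above the other corneal cells in all 3 kinds in both libraries, from 8647 to 15527 CPM against 4618 in library 1 and from 6361 to 13554 against 3193 in library 2.

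Gates on 1 kind of gene, added after seeing the data, gave levels of the remaining gate genes as a description. Their tests are not reported here, because these genes chose the cells of the main gate. Of cells with at least 2 Krt16 UMIs (267 and 82 against cells with none), S100a9 was at 450 against 166 CPM in library 1 and at 84.3 against 8.73 in library 2. The contrast was smaller for S100a8, at 171 against 118 CPM in library 1 and at 15.9 against 3.19 in library 2. Akr1b8 was at 179 against 47.4 CPM in library 1 and at 9.54 against 8.54 in library 2, so it stood apart in library 1 and hardly in library 2. Of cells with at least 2 alarmin UMIs (461 and 21), Krt16 was at 679 against 161 CPM and at 882 against 73.9. Genes outside the gate were tested in the same way with edgeR. Urah was higher under either gate, by 1.72 ± 0.15 with Krt16 (adjusted p = 0.00016) and 0.92 ± 0.13 with the alarmins (adjusted p = 2.05e-10). Lcn2 was at 13.4 against 18.2 CPM and at 9.54 against 8.54 in cells with Krt16 (-0.27 ± 0.37, adjusted p = 0.818). In cells with alarmin UMIs it was at 57.8 against 4.96 CPM and at 52.5 against 6.33, 3.41 ± 0.27 higher (adjusted p = 1.33e-32).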

How the data were processed

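Single-cell RNA was measured in 2 labelled samples of 1 group. The authors deposited 1 matrix of UMI counts per gene and barcode, with 31053 genes and 6752 barcodes, per the file headers. Cell Ranger 3.1.0, Seurat 5.0.0 and the build GRCm38 (mm10) are named in the submitters' processing notes; how shared reads were assigned is not given in the sources used here. Gated and other corneal cells held 4145162 and 9702787 UMIs in library 1 and 478737 and 11067996 in library 2, so low counts in gated cells of library 2 limit the precision.

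Deposited counts of the cells of each class were added up within a library, and the 4 sums were tested with edgeR 4.0.16 (quasi-likelihood, TMM scaling, filterByExpr, library as block, R 4.3.3) after leaving out the 4 gate genes, Krt12 and Krt15. P-values were Benjamini-Hochberg adjusted over all genes tested, at a threshold of 0.05. Cells of 1 library are not replicates, the block uses the barcode's library number, and the SE comes from a spread estimated over all genes. The members, gene lists and marker lists were chosen with earlier results of these data known. Per direction, the 14 genes with the largest log2 difference past the threshold were named, if both libraries agreed in sign and the sums averaged 20 CPM or more, leaving out gate, mitochondrial and ribosomal protein genes and unnamed models, and, of each list, up to 4 members past the threshold, or up to 2 of the highest CPM where none passed; further genes in the text (such as Krt5, Egfr, Pgam1, Cd63, Ccnb1 and marker genes) were chosen after their values were seen. Doublets were not removed in the main comparison; Scrublet in scanpy 1.11.5 scored each library, and the highest 3% of scores were left out as an alternative. Cells were thinned to 2000 UMIs for shares of cells, with 95% exact binomial intervals that cover counting error only. The test script was checked on simulated data. Alternatives were DESeq2 1.42.0, no filter, no block, other gates and limits, depth matching and thinning. Positions come from GENCODE and promoter sequences from RefSeq GRCm38.p6. Some genes past the threshold are not reported here.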

Additional observations from a re-analysis of the deposited data

How the results depend on the processing

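The counts of genes differing between gated and other corneal cells depended on the setting more than the direction of single genes did. Beside 313 higher and 174 lower, there were 73 and 13 with DESeq2, 197 and 109 with the top 10% gated, 89 and 52 with cells thinned to 2000 UMIs, 136 and 69 without the highest Scrublet scores, 15 and 1 with other cells matched on total UMIs, and 96 and 38 with as many other cells drawn regardless of depth. The top 20% gave 111 lower and the gate on at least 2 Krt16 UMIs 107 lower. The libraries pair the sums, and without the replicate block 3 genes were higher and 0 lower, with 1041 at an unadjusted p under 0.05. Leaving out a library leaves 2 sums and no residual degree of freedom, so no count of genes was possible. Of 476 values of the 28 rule-named genes under all settings, 350 kept their sign and counted as unchanged. These are tested values that stayed past the threshold and single-library values, which have no threshold and lay near the main value. A further 110 kept their sign and lost the threshold, 15 moved without a test and 1 changed sign. That was Lcn2, at -0.27 with at least 2 Krt16 UMIs. With at least 2 alarmin UMIs Gbp2 was -0.027 (adjusted p = 0.985), Bst2 -0.14 (0.850) and Krt13 -1.22 (1.13e-10), and in library 2 alone Arntl was 0.077 and Igfbp3 -1.08, each against the sign of the reported value (Krt13: 0.0029, not past the threshold); the cause was not tested. As a mean of the libraries, the share of cells with Mki67 differed by -19.3 points, -5.72 without thinning and -12.5 at 4000 UMIs, and by -23.4 and -15.1 in single libraries. Top2a differed by -11.6 points, -3.29 without thinning, and -13.8 and -9.42 in single libraries. Ccnb1 differed by -3.06 points, -13.9 at 4000 UMIs, and -8.21 and 2.09 in single libraries. The 70 gated cells of library 2 limit every comparison of the main gate that needs both libraries. With the top 15% taken within each library, library 2 had 273 gated cells. That setting called 519 genes, 350 of them among the 487 main calls, and 19 of the 28 rule-named genes still passed. The gate on at least 2 Krt16 UMIs called 325 genes, 233 of them main calls.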

Other observations

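Genes outside the naming rule's top 14 also stood apart in gated cells, and they were chosen after their values were seen because they passed with other cells matched on total UMIs. Fabp5, a fatty acid binding protein of stratified epithelium, was at 10164 CPM in gated and 2491 in other cells of library 1 and at 3652 and 1112 in library 2, a log2 difference of 1.87 ± 0.10 (SE, n = 2 libraries; edgeR adjusted p = 1.21e-79). BC100530 was at 2978 against 1025 CPM and at 1023 against 448 (1.37 ± 0.12, adjusted p = 1.86e-28). Ifitm1, an interferon-inducible membrane protein, was 0.91 ± 0.15 higher (adjusted p = 1.87e-07). Slurp1, a secreted Ly6-family protein of the corneal surface, was the only gene that passed as lower with matched depth. It was at 496 against 1200 CPM and at 571 against 1176 (-1.16 ± 0.13, adjusted p = 4.52e-17).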
